A study of Mus musculus with 6 samples.

Results

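Macrophage, monocyte and granulocyte genes were followed in 6 bulk RNA-seq libraries of innate lymphoid cell precursors (ILCPs) from mouse bone marrow. The set names 32 genes that mark mature myeloid cells, and the genes were selected on their levels per library in these same data, where they stood out as a macrophage and a granulocyte group. What follows on the members is therefore a description, and no test of them is read as independent evidence. The deposited table held 25 of the 32 among its 16383 genes. Marco, Fcgr1, Cd14, S100a9, Ngp, Camp and Ltf were not analysed here. There were 3 libraries of GFP+ ILCPs and 3 libraries of GFP- ILCPs. Both fractions came from the same Rag1cre;ET-2 mice on the C57BL/6 strain, in which Cre is driven from the Rag1 gene, a gene of lymphoid cells, so every library carried both the Cre and the ET-2 allele. The sample descriptions mark the GFP+ libraries as ET2 and the GFP- libraries as NLC. Carrying the allele is not the same as expressing ET-2, and the level of ET-2 in each fraction was not tested. No Cre-only or wild-type group was analysed here, and no treatment was named. The age and sex of the mice are not given in the sources used here. Bone marrow of several mice was combined for each replicate, and the cells were lineage-depleted and then sorted as Flt3-, IL7Rα+, α4β7+, CD90+ and CD25-. The antibodies of the lineage cocktail are not given in the sources used here. In such bulk libraries more cells of a type and more RNA per cell cannot be told apart.

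As background, tissue macrophages of bone marrow and spleen clear dying cells and aged red cells, and they are the main source of the complement component C1q, whose 3 chains assemble into one recognition molecule. Granulocyte precursors fill their first granules with myeloperoxidase and serine proteases, whose messages are made at the promyelocyte stage and are largely lost in mature neutrophils. ILCPs are lymphoid precursors of innate lymphoid cells and are not known for either programme. ET-2 is an engineered E protein, a transcription factor of the class that binds E-box sequences.

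Library totals ran from 10432461 to 15042354 estimated counts in GFP+ ILCPs, against 11680512 to 19038554 in GFP- ILCPs. The share of genes above 0 was 90.08%, 76.76% and 68.61% in GFP+ replicates 1, 2 and 3, against 91.66%, 88.73% and 84.15% in GFP- replicates 1, 2 and 3. GFP+ replicate 3 stood apart, with 2.98% of its counts in immunoglobulin genes and 8.34% in ribosomal protein genes. The highest shares in any other library were 0.136% and 3.22%. Il7r, which the sort selected for, had 269.9 to 530 CPM (counts scaled to library size) per kb of exon in GFP+ ILCPs, against 291 to 575 in GFP- ILCPs. Where 3 values are given for a fraction they belong to replicates 1, 2 and 3 in that order. CPM were scaled by trimmed means, and a count of 3, used as the floor, equals 0.19 to 0.357 CPM in the GFP+ libraries and 0.138 to 0.233 CPM in the GFP- libraries. The counts carry no molecular identifiers, so floors cover counting error only.

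The summed level of the macrophage members was highest in GFP+ replicates 1 and 3, and the granulocyte members differed more between libraries than between fractions. Added over the 16 macrophage members in the table (the C1q chains and the resident macrophage genes), the level was 330.2, 138 and 504 CPM in GFP+ ILCPs, against 65.3, 76.4 and 104 CPM in GFP- ILCPs. All 3 GFP+ sums lay above all 3 GFP- sums, and the ratio of the means was 3.95. For GFP+ replicate 2 this rests on 1 gene, Cd163, which gave 83.5 of its 138 CPM. Without Cd163 the sum was 313, 54.2 and 499 CPM in GFP+ ILCPs, against 53.2, 53.0 and 94.9 CPM in GFP- ILCPs, and the groups overlapped. Within the replicates, where both fractions came from the same mice, the ratios with Cd163 were 5.06, 1.80 and 4.83. Set against Il7r of the same library, the macrophage sum came to 26.2%, 5.60% and 20.4% in GFP+ ILCPs, against 4.81%, 4.48% and 3.90% in GFP- ILCPs. Gene lengths are the same in both fractions, so they do not enter that contrast. The 3 monocyte and shared myeloid members summed to 910, 189 and 832 CPM in GFP+ ILCPs, against 446, 294 and 234 CPM in GFP- ILCPs, and the groups overlapped through GFP+ replicate 2. The 6 granulocyte members summed to 67.8, 8.71 and 754 CPM in GFP+ ILCPs, against 126, 30.5 and 183 CPM in GFP- ILCPs. Their highest and lowest sums were both GFP+ libraries. Their ratio of means, 2.45, rests on GFP+ replicate 3: without that library the log2 ratio was -1.57, against 1.29 with it.

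**Figure D1:**
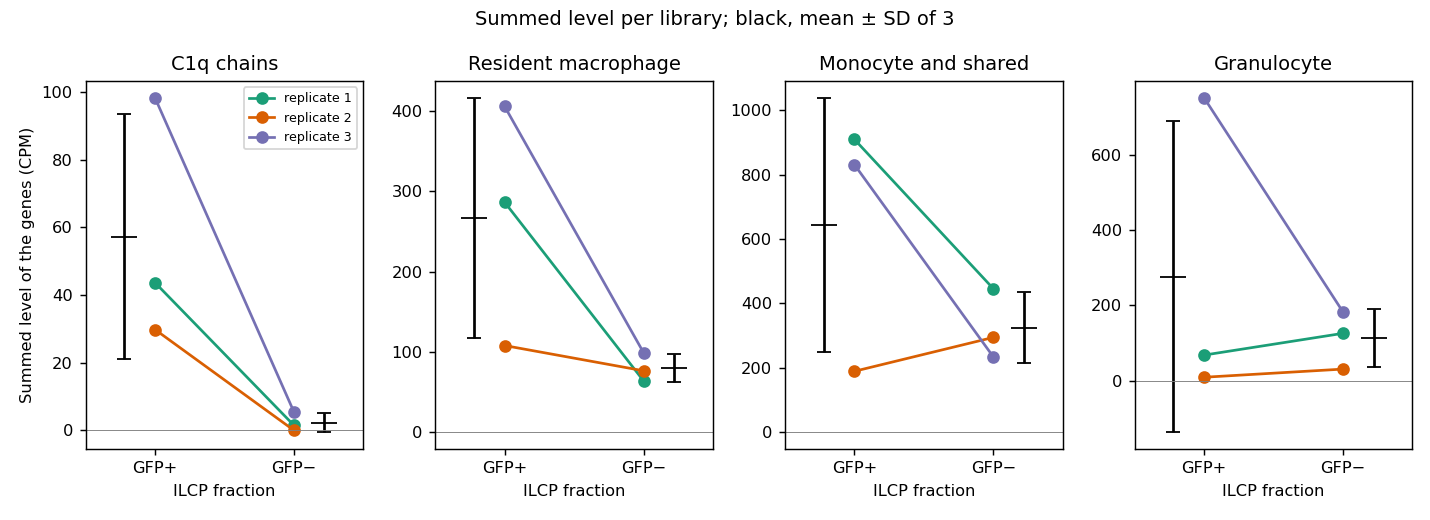
Summed CPM (linear axis) of the C1q, resident macrophage, monocyte and shared, and granulocyte members, with 1 point per library, GFP+ ILCPs left of GFP- ILCPs, lines joining the fractions of a replicate, and black bars for the mean ± SD of 3 libraries. The resident macrophage sums of 287, 108 and 406 CPM in GFP+ ILCPs all lie above the 63.8, 76.4 and 98.9 CPM of GFP- ILCPs, with 83.5 of the 108 CPM from Cd163. The C1q sums do not overlap either, while the other groups overlap.

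The spread inside the GFP+ group was wide. GFP+ replicate 2 held 14 of the 25 members above 0, where GFP+ replicate 1 held 24 and GFP+ replicate 3 held 22. In GFP- ILCPs the numbers were 23, 18 and 20. Of the 11 members at 0 in GFP+ replicate 2, 8 were above 0 in both other GFP+ libraries. GFP+ replicate 3 had the highest value of 14 members and GFP+ replicate 1 that of 7. For 15 of the 25 members more than 50% of the CPM summed over the 6 libraries came from 1 library. Members above 0 in all 6 libraries numbered 12 of 25, while 59.8% of all genes were.

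**Figure D2:**
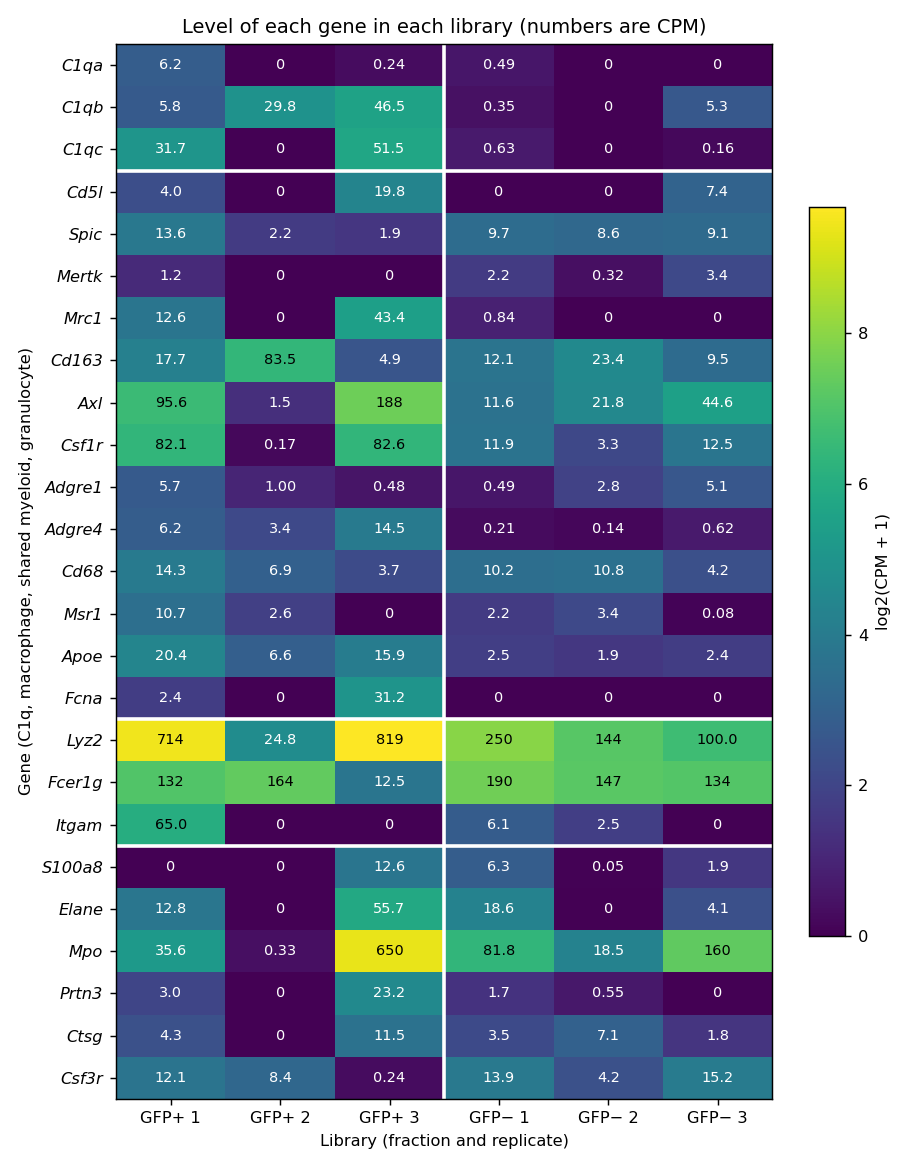
Level of each of the 25 members, as log2(CPM + 1), in the 3 GFP+ libraries (left) and the 3 GFP- libraries (right), grouped by role, where color gives the log2 value and the printed number the CPM. GFP+ replicate 2 has 11 members at 0, and GFP+ replicate 3 holds the highest value of 14 members.

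By mean CPM, 19 members were higher and 6 lower in GFP+ ILCPs, while 46.9% of all genes were higher. In the fit of all genes with edgeR's quasi-likelihood test, 23 members had enough counts to be tested (not C1qa or Fcna), and 0 passed an adjusted p of 0.05. The background was equally 0% of 12199 genes, with 0.998 the smallest adjusted p of any gene. At an unadjusted p under 0.05 edgeR held 4 members, all higher (C1qc, Mrc1, Adgre4 and Apoe), beside 216 genes higher and 178 lower overall. The median log2 fold change of the 23 members was 1.59, beside -0.03 over all genes tested, and the choice of the members by their levels bears on both counts and median. DESeq2 called 60 genes, and 0.103% of the genes it tested were called higher. Among the members it called Adgre4 alone. Of the genes with an adjusted p in the authors' deposited table, 0.251% were called higher, and the called members were C1qc, Adgre4, Apoe and Fcna. With the replicate number as a block, DESeq2 called 153 genes, 0.223% of those tested being called higher, and the members called were C1qb, C1qc, Adgre4 and Fcna. GFP+ and GFP- libraries did not overlap for 3 members, C1qb, Adgre4 and Apoe, all higher in GFP+ ILCPs, where the background over all genes was 2.6%. No member lay wholly lower in GFP+ ILCPs, beside 5.87% of all genes. GFP+ replicate 2 was the lowest GFP+ library for 14 of the 25 members and was singled out after its values were seen. Without that library the count of non-overlapping higher members was 10, beside 7.3% of all genes. The other 7 were C1qc, Mrc1, Axl, Csf1r, Fcna, Lyz2 and Prtn3.

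The genes of the 3 C1q chains lie side by side on the minus strand of chromosome 4 (GRCm38). C1qa spans chr4:136895917-136898803, C1qc chr4:136889804-136893065 and C1qb chr4:136880129-136886187. The gaps are 2.851 kb between C1qa and C1qc and 3.616 kb between C1qc and C1qb. The RefSeq promoter windows (GRCm38.p6, from 250 bases before to 50 after the start, minus strand) of C1qb, chr4:136886151-136886450, and C1qc, chr4:136892865-136893164, are shown because these neighbours differed in GFP+ replicate 2. There C1qb had counts and C1qc had none, while both genes were highest in GFP+ replicate 3. Capitals mark matches to GAGGAA, the core letters read by PU.1 and other Ets factors, or its reverse strand, and in C1qb also to the E-box CAGGTG.
C1qb: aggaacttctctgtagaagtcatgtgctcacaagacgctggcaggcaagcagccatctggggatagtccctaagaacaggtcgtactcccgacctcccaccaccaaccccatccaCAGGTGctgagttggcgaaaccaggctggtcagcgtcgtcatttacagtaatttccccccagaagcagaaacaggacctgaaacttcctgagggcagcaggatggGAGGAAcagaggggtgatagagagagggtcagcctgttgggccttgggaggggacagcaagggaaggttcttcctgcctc
C1qc: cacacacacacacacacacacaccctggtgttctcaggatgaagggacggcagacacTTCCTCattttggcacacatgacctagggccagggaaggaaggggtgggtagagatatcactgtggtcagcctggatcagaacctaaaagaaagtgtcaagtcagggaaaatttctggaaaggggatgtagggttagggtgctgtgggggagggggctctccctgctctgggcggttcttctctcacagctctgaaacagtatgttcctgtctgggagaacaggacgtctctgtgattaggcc
C1qb, the B chain, had 5.77, 29.8 and 46.5 CPM in GFP+ ILCPs, against 0.35, 0 and 5.29 CPM in GFP- ILCPs. The lowest GFP+ library was just above the highest GFP- library. C1qc, the C chain, had 31.7, 0 and 51.5 CPM in GFP+ ILCPs, against 0.631, 0 and 0.156 CPM in GFP- ILCPs. It was thus high in 2 GFP+ libraries and had no count in the one where C1qb had 359 counts. C1qa, the A chain, had 97, 0 and 2 counts in GFP+ ILCPs, against 7, 0 and 0 counts in GFP- ILCPs. The chains that form one molecule were therefore not found in 1 ratio across the GFP+ libraries: GFP+ replicate 2 had C1qb alone, and GFP+ replicate 3 had C1qb and C1qc at 391 and 433 counts beside 2 of C1qa. Summed, the chains reached 43.7, 29.8 and 98.3 CPM in GFP+ ILCPs, against 1.47, 0 and 5.45 CPM in GFP- ILCPs. The edgeR log2 fold changes were 3.87 ± 1.75 (SE) for C1qb and 6.71 ± 2.28 for C1qc. In the authors' deposited table the log2 fold change of C1qc was 6.85 ± 1.92 with an adjusted p of 0.0328, and that of C1qb was 3.98 ± 1.57 with an adjusted p of 0.322. DESeq2 gave adjusted p of 0.0651 for C1qc and 0.458 for C1qb, and 0.00279 and 0.0149 with the replicate block.

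Adgre4, Apoe and Fcna were the other members called higher in the authors' deposited table. The promoter windows of Adgre4 (chr17:55749734-55750033, plus strand) and Fcna (chr2:25627925-25628224, minus strand) are shown because Adgre4 was the member DESeq2 called and Fcna the one found in GFP+ libraries alone. Capitals mark matches to GAGGAA on either strand and, in Adgre4, one to TTGCNNAA, the C/EBP letters, on the reverse strand.
Adgre4: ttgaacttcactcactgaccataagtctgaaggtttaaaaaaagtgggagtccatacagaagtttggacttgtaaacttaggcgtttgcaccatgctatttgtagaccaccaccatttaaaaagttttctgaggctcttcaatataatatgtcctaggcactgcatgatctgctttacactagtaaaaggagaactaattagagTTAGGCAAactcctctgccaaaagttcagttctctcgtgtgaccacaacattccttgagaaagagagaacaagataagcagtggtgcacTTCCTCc
Fcna: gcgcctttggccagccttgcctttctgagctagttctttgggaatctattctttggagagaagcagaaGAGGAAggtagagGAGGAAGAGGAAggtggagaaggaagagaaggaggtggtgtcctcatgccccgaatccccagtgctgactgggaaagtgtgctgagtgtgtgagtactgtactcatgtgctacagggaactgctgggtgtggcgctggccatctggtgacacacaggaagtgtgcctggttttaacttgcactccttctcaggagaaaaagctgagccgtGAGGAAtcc
Adgre4 codes for an adhesion receptor of the F4/80 family found on mouse macrophages and monocytes, and it spans chr17:55749984-55853662. It had 6.22, 3.40 and 14.5 CPM in GFP+ ILCPs, against 0.21, 0.138 and 0.622 CPM in GFP- ILCPs. The groups did not overlap, and the GFP- values rest on 3, 3 and 8 counts, which are at or near the floor. The edgeR log2 fold change was 4.61 ± 1.62 (SE). In the authors' deposited table it was 4.78 ± 1.10 with an adjusted p of 0.00175. DESeq2 gave an adjusted p of 0.00684, and values from 0.00484 to 0.127 over the alternatives. Of 11 settings, the one reported included, 5 kept the call. It was lost with 0.0921 without GFP- replicate 1, 0.127 without GFP- replicate 2 and 0.11 without GFP+ replicate 3. It was also lost with 0.094, 0.11 and 0.101 when both fractions of replicate 1, 2 or 3 were left out. Apoe, the apolipoprotein E that macrophages secrete while exporting cholesterol, lies at chr7:19696109-19699188. It had 20.4, 6.64 and 15.9 CPM in GFP+ ILCPs, against 2.45, 1.93 and 2.41 CPM in GFP- ILCPs, so that every GFP+ library was above every GFP- library. Its log2 fold change was 2.66 ± 1.17 (SE) with edgeR and 2.74 ± 0.76 with an adjusted p of 0.0307 in the authors' deposited table, while DESeq2 gave an adjusted p of 0.0805. Fcna, the lectin ficolin-A that starts complement activation and is made by mouse macrophages, lies at chr2:25624666-25628030. It had 38, 0 and 262 counts in GFP+ ILCPs and 0 in all 3 GFP- libraries. Against the floor of 3 counts over the GFP- group it was at least 135-fold higher, and at least 22.3-fold higher without GFP+ replicate 3. The authors' deposited table gave an adjusted p of 0.00565 for it, and DESeq2 gave 0.438.

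The receptors that macrophages use to take up cells and particles fell into those high in GFP+ replicates 1 and 3 and those with no such pattern. Mrc1, the mannose receptor, had 12.6, 0 and 43.4 CPM in GFP+ ILCPs, against 0.841, 0 and 0 CPM in GFP- ILCPs. Axl, a receptor kinase that binds ligands on dying cells, had 95.6, 1.49 and 188 CPM in GFP+ ILCPs, against 11.6, 21.8 and 44.6 CPM in GFP- ILCPs. Csf1r, the receptor for the growth factor that macrophages need to live, had 82.1, 0.166 and 82.6 CPM in GFP+ ILCPs, against 11.9, 3.31 and 12.5 CPM in GFP- ILCPs. Each of these 3 genes was near or at 0 in GFP+ replicate 2 (18 counts of Axl, 2 of Csf1r) and above all GFP- libraries in the other GFP+ libraries. Axl and Csf1r made up 53.8%, 1.21% and 53.6% of the macrophage sum in GFP+ ILCPs, against 36.0%, 32.8% and 54.7% in GFP- ILCPs. Without them the macrophage sum was 152, 136 and 234 CPM in GFP+ ILCPs, against 41.8, 51.3 and 47.3 CPM in GFP- ILCPs. GFP+ replicate 2 held little of either gene, and its 136 CPM was mostly the Cd163 given above. The edgeR log2 fold changes were 6.03 ± 2.5 (SE) for Mrc1, 1.87 ± 1.19 for Axl and 2.57 ± 1.42 for Csf1r.

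Cd163, the haemoglobin scavenger receptor, ran the other way between GFP+ libraries, with 17.7, 83.5 and 4.88 CPM in GFP+ ILCPs, against 12.1, 23.4 and 9.49 CPM in GFP- ILCPs. Its highest library was the GFP+ replicate 2 that lacked Mrc1, Cd5l and C1qc, and without that library its log2 fold change of 1.24 ± 1.02 (SE) was -0.42. Cd5l, an inhibitor of cell death secreted by macrophages, had 4.00, 0 and 19.8 CPM in GFP+ ILCPs, against 0, 0 and 7.39 CPM in GFP- ILCPs, and it was highest in replicate 3 in both fractions. Spic, the transcription factor of red pulp and bone marrow macrophages that handle iron, had 13.6, 2.24 and 1.90 CPM in GFP+ ILCPs, against 9.74, 8.60 and 9.10 CPM in GFP- ILCPs. The GFP- libraries lay close together, and the GFP+ libraries lay on both sides of them. Adgre1, which codes for F4/80, had 5.71, 0.996 and 0.476 CPM in GFP+ ILCPs, against 0.491, 2.80 and 5.13 CPM in GFP- ILCPs. Cd68, a lysosomal protein of phagocytes, averaged 8.29 ± 5.43 CPM (SD, n = 3) in GFP+ ILCPs, against 8.37 ± 3.63 CPM (n = 3) in GFP- ILCPs. Both groups overlapped fully for these 2 macrophage markers. Msr1, a scavenger receptor, had 10.7, 2.57 and 0 CPM in GFP+ ILCPs, against 2.17, 3.36 and 0.0778 CPM in GFP- ILCPs. Mertk, another receptor for dying cells, had 1.21, 0 and 0 CPM in GFP+ ILCPs, against 2.17, 0.322 and 3.42 CPM in GFP- ILCPs. Mertk thus had its highest values in GFP- ILCPs, with a log2 fold change of -2.23 ± 1.97 (SE) that did not pass edgeR's test.

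**Figure D3:**
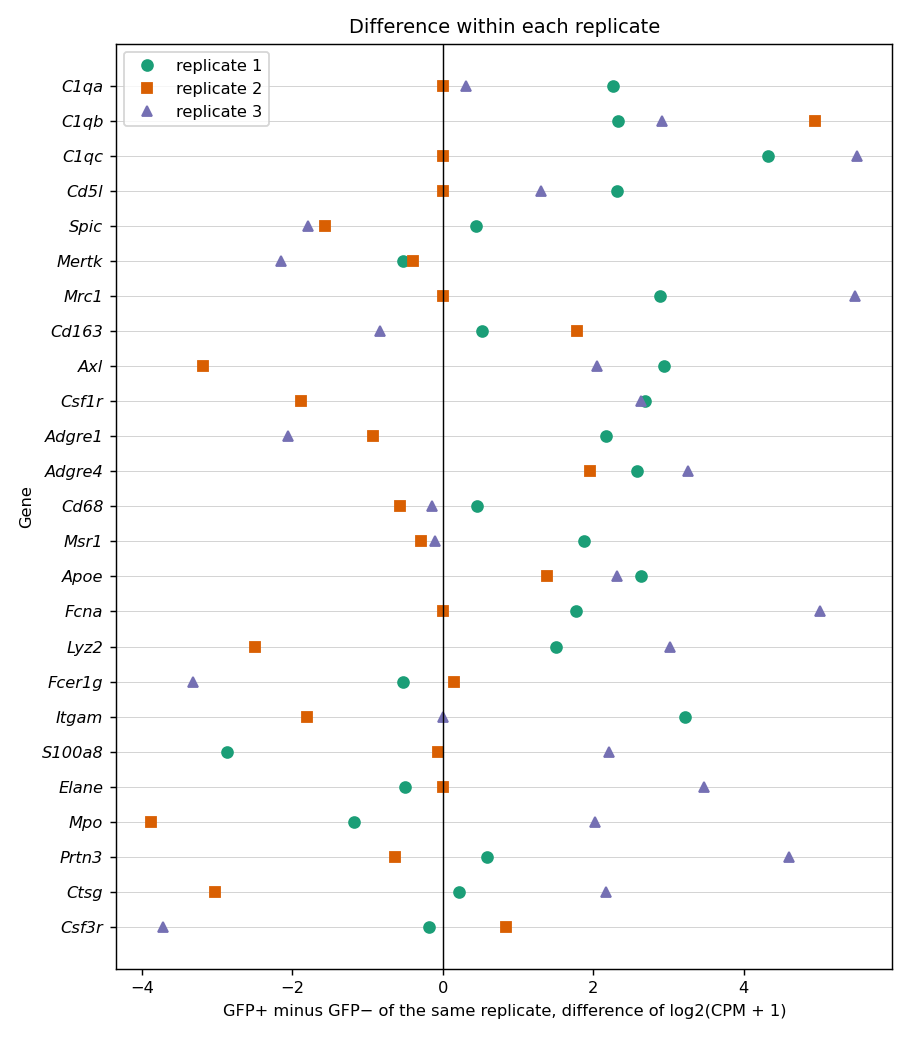
Difference of each member within a replicate, GFP+ minus GFP-, on the log2(CPM + 1) scale, with 1 point per replicate. C1qb, Adgre4 and Apoe lie above 0 in all 3 replicates.

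Within replicates, 19 members were higher and 6 lower in the GFP+ library of replicate 1, and 16 were higher and 8 lower in that of replicate 3. In replicate 2 only 6 were higher and 13 lower, with 6 equal. Over all genes the shares higher in the GFP+ library were 46.9%, 39.1% and 35.1% in replicates 1, 2 and 3. C1qb, Adgre4 and Apoe were the 3 members higher in every replicate.

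Among the genes shared by monocytes, macrophages and granulocytes, Lyz2 had the highest level per length of all members, at a mean of 260 CPM per kb of exon over the 6 libraries. Lyz2 codes for lysozyme, and had 714, 24.8 and 819 CPM in GFP+ ILCPs, against 250.2, 144 and 99.96 CPM in GFP- ILCPs. GFP+ replicate 2 was the lowest of the 6 libraries and the other 2 GFP+ libraries were the highest, with a log2 fold change of 1.66 ± 0.96 (SE) that did not pass edgeR's test. Its near copy Lyz1 was at most 0.140 CPM in any library. Fcer1g, the signalling chain of Fc receptors, which lymphoid and mast cells use as well, had 132, 164 and 12.5 CPM in GFP+ ILCPs, against 189.7, 147 and 134 CPM in GFP- ILCPs. It came next per length, at a mean of 149 CPM per kb, and GFP+ replicate 3 was its lowest library although C1qb, C1qc, Mrc1 and Axl were highest there. Itgam, which codes for CD11b, an integrin of myeloid cells, had 1024, 0 and 0 counts in GFP+ ILCPs, against 87, 54 and 0 counts in GFP- ILCPs. Its level thus came mostly from 1 library, and both fractions of replicate 3 had no count of it.

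The granulocyte members are led by Mpo, myeloperoxidase, which averaged 46.1 CPM per kb over the 6 libraries, the third highest level per length after Lyz2 and Fcer1g. Prtn3 and Elane, proteases of the same granules, lie 3.072 kb apart on the plus strand of chromosome 10, at chr10:79874476-79883174 and chr10:79886247-79888215. Their RefSeq promoter windows (chr10:79879417-79879716 and chr10:79886062-79886361, plus strand) are shown because these neighbours shared their zero and their peak among the GFP+ libraries. Capitals mark GAGGAA, which each holds once, upstream of the start. The RefSeq start of Prtn3 lies inside the longer GENCODE span given above.
Prtn3: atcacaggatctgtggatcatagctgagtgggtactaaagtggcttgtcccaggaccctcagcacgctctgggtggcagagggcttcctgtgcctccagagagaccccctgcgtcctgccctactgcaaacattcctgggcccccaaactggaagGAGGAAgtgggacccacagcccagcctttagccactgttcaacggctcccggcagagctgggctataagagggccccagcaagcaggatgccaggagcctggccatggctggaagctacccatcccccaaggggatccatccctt
Elane: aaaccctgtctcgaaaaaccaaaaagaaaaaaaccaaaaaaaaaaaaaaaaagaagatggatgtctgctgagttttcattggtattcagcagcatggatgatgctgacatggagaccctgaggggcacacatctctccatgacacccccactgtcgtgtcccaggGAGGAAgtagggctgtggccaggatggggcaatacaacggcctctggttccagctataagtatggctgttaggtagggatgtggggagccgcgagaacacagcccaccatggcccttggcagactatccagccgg
Mpo had 35.6, 0.332 and 650.5 CPM in GFP+ ILCPs, against 81.8, 18.5 and 159.8 CPM in GFP- ILCPs. Replicate 3 was the highest and replicate 2 the lowest in both fractions. Elane, neutrophil elastase, had 12.8, 0 and 55.7 CPM in GFP+ ILCPs, against 18.6, 0 and 4.12 CPM in GFP- ILCPs. Prtn3, proteinase 3, had 3.05, 0 and 23.2 CPM in GFP+ ILCPs, against 1.68, 0.552 and 0 CPM in GFP- ILCPs. Ctsg, cathepsin G, had 4.25, 0 and 11.5 CPM in GFP+ ILCPs, against 3.50, 7.12 and 1.79 CPM in GFP- ILCPs. All 4 granule genes were highest in GFP+ replicate 3, and 3 of them had no count in GFP+ replicate 2, where Mpo had 4 counts. Added together they gave 55.7, 0.332 and 741 CPM in GFP+ ILCPs, against 106, 26.2 and 166 CPM in GFP- ILCPs. Mpo made up 86.3% of the granulocyte sum in GFP+ replicate 3 and 87.4% in GFP- replicate 3.

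The other 2 granulocyte members differed from each other. S100a8, a calcium-binding protein of neutrophils and monocytes, had 0, 0 and 106 counts in GFP+ ILCPs, against 90, 1 and 25 counts in GFP- ILCPs. Like the granule genes it had no count in GFP+ replicate 2 and its highest CPM in GFP+ replicate 3. Csf3r, the receptor for granulocyte colony-stimulating factor, had 12.1, 8.38 and 0.238 CPM in GFP+ ILCPs, against 13.9, 4.23 and 15.2 CPM in GFP- ILCPs. Csf3r was therefore lowest in GFP+ replicate 3, the library with the highest Mpo. The macrophage sum was 4.87, 15.8 and 0.669 times the granulocyte sum in GFP+ replicates 1, 2 and 3, against 0.519, 2.51 and 0.571 times in GFP- replicates 1, 2 and 3. Both sums had the order replicate 3, 1, 2 over the GFP+ libraries, and the sizes of the differences were unlike. None of the 6 granulocyte genes passed edgeR's test; the log2 fold changes ran from -0.69 ± 1.36 (SE) for Csf3r to 3.54 ± 2.25 for Prtn3.

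Promoter windows from RefSeq were read for 21 of the 25 members. Windows on the chromosome of Csf1r were left out throughout, for the members and for the background. GAGGAA, read on both strands, stood in 16 of these 21, while 28.3% of all 32851 windows of the same length held it. Members were counted as genes, so that Apoe, with several windows, counted if any matched. The background shares count single windows, so the units differ. The C/EBP letters TTGCNNAA stood in 2, Adgre4 and Cd68, beside 10.8% of all windows. Of the E-box forms, CAGCTG stood in 4 members beside 16.3% of all windows, and CAGGTG in 3 beside 20.2%. The form CACGTG stood in none, beside 7.15%. Matches of different motifs overlapped in 0 of the member windows. These matches describe letters in a window and are no evidence that a factor bound there.

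Other genes of the same cells, taken from lists of known markers, were counted in the same way, and edgeR called 0 genes in each list. DESeq2 called Slc40a1 higher, with an adjusted p of 0.0319, and Masp2 lower, with an adjusted p of 0.0045. Of all genes DESeq2 tested, 0.308% were called lower. The filter on low counts left Masp2 out of edgeR's test. Of 25 other macrophage genes tested, 15 were higher and 10 lower in GFP+ ILCPs, with a median log2 fold change of 0.34. The groups did not overlap for 3 of them, all higher and picked out after their values were seen. Slc40a1, the iron exporter of iron-recycling macrophages, had 9.39, 8.05 and 57.2 CPM in GFP+ ILCPs, against 2.38, 1.29 and 1.71 CPM in GFP- ILCPs (log2 fold change 3.79 ± 1.20 SE). Siglec1, the sialic acid receptor CD169 of marrow macrophages, had 10.7, 5.98 and 55.5 CPM in GFP+ ILCPs, against 3.01, 4.18 and 2.02 CPM in GFP- ILCPs (2.96 ± 1.17). The third was Ctss, cathepsin S, a protease of antigen-presenting cells. The genes of this list with the highest mean CPM, not adjusted for length, were Stab2, a scavenger receptor that endothelium also makes, and Maf, a transcription factor that lymphoid cells share, at 962 ± 506 and 766 ± 756 CPM (SD, n = 3) in GFP+ ILCPs, against 1146 ± 214 and 663 ± 587 CPM (n = 3) in GFP- ILCPs.

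Of 16 other complement and efferocytosis genes tested, 10 were higher and 6 lower, with a median of 0.29. C3, the central complement protein, averaged 267 ± 343 CPM in GFP+ ILCPs and 28.0 ± 21.9 CPM in GFP- ILCPs, and Lrp1, an uptake receptor for lipoproteins and dying cells, 142 ± 150 CPM in GFP+ ILCPs and 18.9 ± 18.0 CPM in GFP- ILCPs. By library C3 had 35.9, 104 and 662 CPM in GFP+ ILCPs, against 42.0, 2.71 and 39.2 CPM in GFP- ILCPs. Lrp1 had 123, 2.74 and 300 CPM in GFP+ ILCPs, against 39.7, 9.42 and 7.55 CPM in GFP- ILCPs. The groups overlapped for both genes. Their unadjusted edgeR p were 0.0206 and 0.0436, and neither passed after adjustment. Masp2, a protease of the lectin pathway of complement, had 0 counts in all 3 GFP+ libraries, against 163, 4 and 197 counts in GFP- ILCPs, and was named for its DESeq2 call after its values were seen. Of 16 other monocyte genes 12 were higher and 4 lower (median 0.32). Ccr2, the chemokine receptor of blood monocytes that lymphoid precursors can also carry, averaged 574 ± 194 CPM in GFP+ ILCPs and 330 ± 72.8 CPM in GFP- ILCPs. Of 18 other granulocyte genes 5 were higher and 13 lower (median -0.79). For Pglyrp1, Padi4 and Cst7 every GFP+ library was below every GFP- library, which held for 5.87% of all genes. Pglyrp1, a bactericidal protein of neutrophil granules, averaged 3.08 ± 3.71 CPM in GFP+ ILCPs and 20.9 ± 9.74 CPM in GFP- ILCPs. These 3 were picked out after their values were seen. Cybb was among the 5 higher, with 66.5, 21.4 and 240 CPM in GFP+ ILCPs, against 19.8, 11.6 and 63.9 CPM in GFP- ILCPs. Cybb was higher in GFP+ ILCPs within all 3 replicates, and the groups overlapped. Of 14 myeloid transcription factors tested 12 were higher and 2 lower (median 0.38). Spi1, which codes for PU.1, the factor that macrophages and granulocytes need, had 7.93, 0.498 and 44.5 CPM in GFP+ ILCPs, against 4.91, 0.0919 and 17.1 CPM in GFP- ILCPs. Its order over the replicates, highest in replicate 3 and lowest in replicate 2 in both fractions, was that of Mpo. Spi1, and the single markers of other cell types given next, were picked out after their values were seen.

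Markers of other cell types also differed by library, and their part in the results was not tested. The B and plasma cell and the erythroid sums were highest in GFP+ replicate 3. The mast cell and basophil and the dendritic cell sums were highest in GFP+ replicate 2, and the megakaryocyte sum in GFP+ replicate 1. Without Cpa3 the mast cell and basophil sum was not highest in GFP+ replicate 2, nor was the dendritic cell sum without Ccr9. The 10 B and plasma cell markers in the table summed to 82.2, 43.3 and 982 CPM in GFP+ ILCPs, against 106, 87.4 and 88.1 CPM in GFP- ILCPs. Jchain, which plasma cells make to join antibodies, gave 802 CPM of the 982. The 11 erythroid markers summed to 140, 46.4 and 291 CPM in GFP+ ILCPs, against 91.0, 76.5 and 113 CPM in GFP- ILCPs, so their order over the GFP+ libraries was that of the macrophage sum. The 8 mast cell and basophil markers summed to 765, 1477 and 1153 CPM in GFP+ ILCPs, against 585, 590 and 1308 CPM in GFP- ILCPs. Cpa3, a mast cell protease, gave 329, 1200.2 and 982 CPM of this in GFP+ ILCPs, against 149, 161 and 498 CPM in GFP- ILCPs. Without Cpa3 the other markers summed to 436, 277 and 171 CPM in GFP+ ILCPs, against 436, 429 and 810 CPM in GFP- ILCPs. Of the 7 markers that edgeR tested, Cpa3 was higher and 6 were lower. Fcer1a, the IgE receptor chain, had 0 counts in all 3 GFP+ libraries, against 38, 12 and 249 counts in GFP- ILCPs. DESeq2 called Fcer1a lower with an adjusted p of 0.00545, while the filter on low counts left it out of edgeR's test. The 8 dendritic cell markers summed to 433, 1522 and 1483 CPM in GFP+ ILCPs, against 343, 539 and 598 CPM in GFP- ILCPs. Nearly all of this was Ccr9, a homing receptor that lymphoid cells carry as well. Without it the other 7 summed to 34.8, 25.6 and 21.3 CPM in GFP+ ILCPs, against 46.3, 19.6 and 21.2 CPM in GFP- ILCPs. Flt3, which the sort excluded, was between 0 and 2.57 CPM. The 7 megakaryocyte markers summed to 52.1, 0.498 and 0.119 CPM in GFP+ ILCPs, against 28.3, 13.5 and 11.7 CPM in GFP- ILCPs, and were highest in GFP+ replicate 1, where Itgam was. The neutrophil receptor Cxcr2 had 27.8, 38.3 and 8.33 CPM in GFP+ ILCPs, against 26.4, 21.7 and 87.8 CPM in GFP- ILCPs, and Ly6g was not analysed here.

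**Figure D4:**
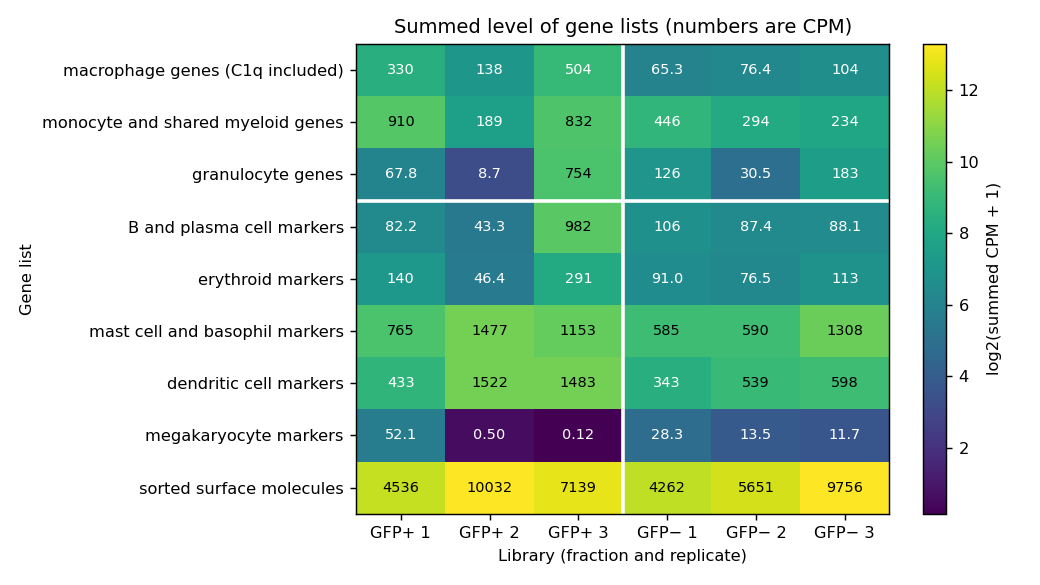
Summed CPM of the member groups, of marker lists of other cell types and of the sorted surface molecules in each library, GFP+ ILCPs left of GFP- ILCPs, with color for log2(summed CPM + 1) and the CPM printed in each cell. GFP+ replicate 3 has the highest macrophage (504 CPM), granulocyte (754 CPM), B and plasma cell (982 CPM) and erythroid (291 CPM) sums of the 6 libraries.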

How the data were processed

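Libraries were made from total RNA of sorted cells with single primer isothermal amplification and sequenced as paired-end reads, per the labels' protocols. Trimmomatic, Bowtie2, kallisto, DESeq2 and GRCm38 are listed, per the submitters' processing notes, with no version or role. Such amplification can leave low transcripts uncounted. Strand is not stated, which leaves antisense and overlapping genes uncertain. In the deposited table are estimated counts per gene, which are not scaled between libraries, and, per the file headers, the authors' log2 fold changes, a Wald statistic as a score, p-values and a mean signal per gene. There were 21 symbols read as dates, kept in the tests and not named.

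Estimated counts were rounded, filtered with filterByExpr and tested over all genes with edgeR 4.0.16 (TMM scaling, quasi-likelihood, Benjamini-Hochberg, 0.05). DESeq2 1.42.0, other scalings, the replicate block and leaving out libraries were alternatives. Per-length levels used GENCODE exon lengths, and promoters came from RefSeq (GRCm38.p6). The differences within replicates used log2(CPM + 1). All members were described, and of each other list at most the 2 highest genes and the 2 with the lowest edgeR p were named, besides genes said to be picked out later. The members and lists were chosen with earlier results of these data known. The scripts were tested on simulated data.

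Both fractions of a replicate were sorted from one pool of mice, per the labels, and are paired by that. As a check, the deviations of the paired libraries from their group means correlated at 0.139, -0.13 and -0.154 in replicates 1, 2 and 3. The p-values of the main fits leave out the pairing and measure the spread between libraries of a fraction, where pool, sort and amplification are not separated. Those with the replicate block measure the spread left after the level of each replicate is taken out.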

Additional observations from a re-analysis of the deposited data

How the results depend on the processing

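edgeR called 0 genes and 0 members under every alternative run with edgeR, the replicate block included; with DESeq2 in its place the counts were 60 and 1. DESeq2's 60 calls became 153 with the replicate block and 79 at a threshold of 0.1, and 27 to 682 when libraries or replicates were left out. The block also moved DESeq2's member calls from 1 to 4. Leaving out libraries or replicates gave 0 to 6 member calls, in the runs that called 27 to 682 of all genes. The share of tested genes called is not given for each of those runs, so the 0 to 6 has no background share beside it. The 3 members with no overlap between fractions became 3 to 11, where the count was 10 without GFP+ replicate 2 and 11 when both fractions of replicate 2 were left out. No overlap is easier to reach with fewer libraries. Over all genes its share with GFP+ higher was 2.6% with all libraries and 7.3% without GFP+ replicate 2. That share was not computed with both fractions of replicate 2 left out, so the count of 11 has no background beside it. Members higher by mean CPM numbered 16 to 21. These member counts were added as results after the data were seen. The log2 ratio of the macrophage sum, 1.98, ran from 1.51 to 2.34 and was 2.11 without Cd163, a choice added after the data were seen, and that of the monocyte and shared sum, 0.99, from 0.56 to 1.42. That of the granulocyte sum, 1.29, turned round to -1.57 without GFP+ replicate 3 and -1.04 without replicate 3, and otherwise reached 1.91. The sign held in every alternative with a value for C1qb, C1qc, Spic, Mertk, Mrc1, Axl, Csf1r, Adgre4, Apoe, Lyz2, Fcer1g and Prtn3. It turned in at least 1 alternative for the other 11 tested members.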
